A study of Mus musculus with 59 samples.

Results

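The meninges are the membranes around the brain, and their inner layer, the leptomeninges, lies directly on the cortical surface. Its fibroblasts lay down a collagen-rich matrix and a basement membrane against the astrocyte endfeet of the glia limitans, carry solute transporters between blood, cerebrospinal fluid and brain, and make retinoic acid and insulin-like growth factor 2. Cortex taken from a skull brings along a variable amount of this membrane, together with the macrophages that live in it.

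Described here are the 12 libraries with the highest and the 12 with the lowest fibroblast marker score, out of 59 RNA-seq libraries of mouse prefrontal cortex. The score of a library was the mean of log2(normalized count + 1) of Col1a1 and Col3a1, which encode fibrillar collagen chains, and Lum, which encodes the collagen-binding proteoglycan lumican. The 24 libraries were chosen by these measured values, so every high-minus-low difference below is a description with no test. Apart from checks for single outlying libraries, which used all 59, tests were made only in the 35 libraries between the 2 groups and between the study's own labels. Because the libraries are of bulk tissue, fewer cells of a type and less RNA per cell cannot be told apart.

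The mice were C57BL/6J, heterozygous (labelled HT) for the Chd8-S62X allele or wild type (WT). The protein, a helicase that remodels nucleosomes, is an autism risk factor. Fluoxetine, lithium or vehicle reached the pups through the dams' milk from postnatal day 3 to 24, and the cortex was taken on day 25. Genotype, treatment and sex gave 12 label groups of 5 libraries, except HT-labelled fluoxetine females with 4. Dams and litters are not named in the labels, and p-values therefore cover only the spread among the libraries.

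The normalized counts of a library summed to between 30.3 and 32.7 M in the high-score group and between 32.8 and 33.7 M in the low-score group, with no overlap. The estimated reads before normalization overlapped, at 29.2 to 36.3 M and 25.8 to 36.2 M. Mitochondrial transcripts made up a median of 6.23% of the sum in high-score and 6.80% in low-score libraries. Chd8 itself was higher in the HT-labelled libraries, at 5921 ± 384 normalized counts (SD, n = 29), than in the WT-labelled libraries, at 3656 ± 309 (SD, n = 30), and the 2 ranges did not overlap. Its log2 difference was 0.70 ± 0.027 (SE; limma adjusted p = 9.23e-27). Directions by genotype therefore refer to the labels.

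**Figure D1:**
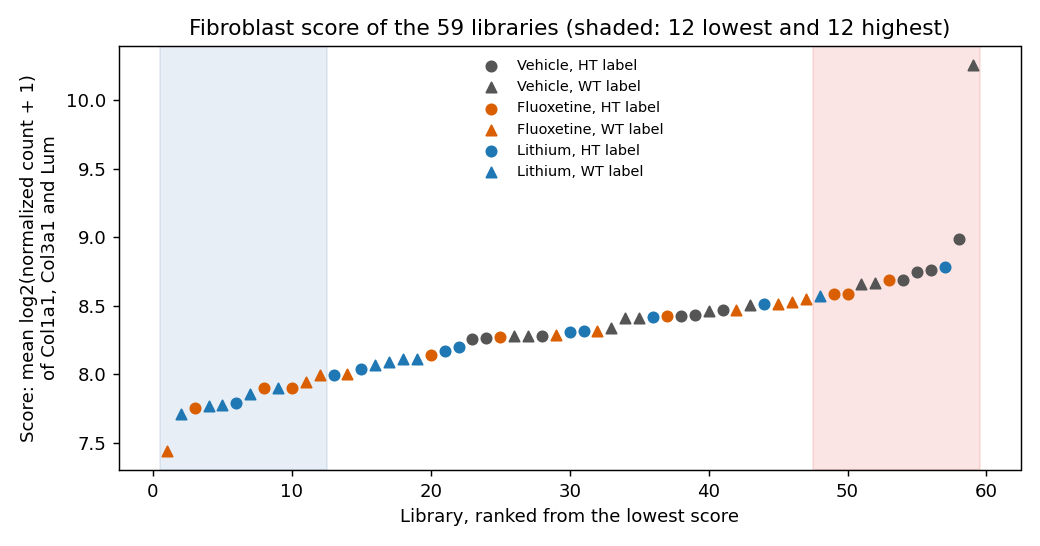
Fibroblast score of each of the 59 libraries (vertical axis, log2 scale) in rank order (horizontal axis), with colour for treatment, symbol for genotype label and shading for the 12 lowest and 12 highest. The score climbs with no step at either limit, at 7.994 against 7.998 and at 8.554 against 8.575, and 1 WT-labelled vehicle library lies alone at 10.26.

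High-score libraries scored from 8.57 to 10.26 with a median of 8.69, and low-score libraries from 7.44 to 7.99 with a median of 7.82. No gap marked either limit. The last low-score library, WT-labelled fluoxetine female replicate 1, had 7.994 and the next, HT-labelled lithium female replicate 2, had 7.998. At the upper limit WT-labelled fluoxetine female replicate 3 had 8.554 and stayed outside, and WT-labelled lithium female replicate 4 had 8.575 and was inside. Col1a1 ran from 721 to 7053 normalized counts in the high-score group against 399 to 616 in the low-score group. Col3a1 ran from 568 to 808 against 278 to 556, and Lum from 110 to 320 against 42.2 to 83.8. These 3 genes are the rule itself, and they are left out of every count and median over genes in the high-minus-low and slope results. They lie at chr11:94936224-94953042 (Col1a1, plus strand), chr1:45311538-45349706 (Col3a1, plus strand) and chr10:97565128-97572703 (Lum, plus strand) of GRCm38.

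WT-labelled vehicle male replicate 5, which had the highest score, stood apart from all other libraries. In it 30 genes, Col1a1 among them, had at least 50 normalized counts and at least 4 times the highest value of the other 58 libraries, while no other library had more than 1 such gene. These genes were looked for after the values were seen. No list was drawn up for them and no test was made, and a few are named here. Ibsp and Bglap are in the dural and skull fibroblast list, and Col10a1 is in the FACIT and network collagen list. Bpifb4, a secreted protein of the nasal airway, had 1873 normalized counts against at most 16.8 elsewhere, and Cyp2a5, a cytochrome P450 of olfactory mucosa, had 480 against at most 7.61. Ibsp, the bone sialoprotein of mineralizing bone, had 332 against at most 17.2, and Mmp13, a collagenase of growing bone, had 289 against at most 6.62. Col1a1 had 7053 against at most 1207, whereas Dcn, a proteoglycan gene of leptomeningeal fibroblasts, had 842 against at most 882. The part of this library in each high-minus-low value is given as the value without it wherever it moved that value by more than 1.5 times or carried a named gene.

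Across the 16836 genes tested other than the score genes, 268 were at least 1 log2 unit higher in the high-score group (1.59%) and 50 at least 1 lower (0.297%). For 86 genes every high-score library lay above every low-score library (0.511%), and for 168 every one lay below (0.998%). The median difference over all genes was 0.00, with 8583 genes above 0. Without WT-labelled vehicle male replicate 5 the counts were 254, 51, 90 and 170. The counts moved far more with the width of the groups: with 20 libraries on each side, 33 genes were at least 1 higher and 4 were higher with no overlap.

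Leptomeningeal fibroblast genes were higher in the high-score libraries almost without exception. Of 28 listed genes, 24 passed the filter of a mean of 10 normalized counts over the 59 libraries, and 23 of these 24 had a positive difference. Their median was 0.77 log2 units, and 0.70 without WT-labelled vehicle male replicate 5. For 10 of the 24 the 2 groups did not overlap. The mean log2 level of the list lay between 8.71 and 9.24 in the high-score and between 8.05 and 8.48 in the low-score libraries. Because the mean over all libraries decided which genes passed, the 24 are not all members of the list. Tcf21 and Dpep1 stayed near 0 throughout, at means of 0.0 and 0.199.

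Decorin (Dcn), a small proteoglycan that binds collagen fibrils and lies next to Lum at chr10:97479609-97518143 on the plus strand, had 524 to 882 normalized counts in the high-score group, with a median of 701. In the low-score group it had 189 to 457, with a median of 394. All 12 high-score libraries lay above all 12 low-score libraries, a difference of 0.91 log2 units. Ogn, which encodes osteoglycin of the same family, had 390 to 601 (median 417) against 118 to 304 (median 232), again with no overlap. Fmod, which encodes fibromodulin, had 858 to 1326 (median 924) against 401 to 657 (median 589). Omd, for osteomodulin, differed most of this family at 1.21, but its ranges of 51.1 to 127 and 18.4 to 58.8 overlapped. The value of 127 was that of WT-labelled vehicle male replicate 5, against at most 87.6 in any other library. Of the 10 small leucine-rich proteoglycans that passed the filter, 9 were higher, with a median of 0.68.

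Col1a2, the partner chain of Col1a1 in type I collagen at chr6:4504814-4541544 on the plus strand, had 1389 to 7101 normalized counts (median 1565) in the high-score and 857 to 1225 (median 1024) in the low-score libraries. Its difference was 0.80 log2 units, and 0.62 without WT-labelled vehicle male replicate 5, which held the value of 7101. Of the 14 genes of the fibrillar and beaded collagen list, Col1a2 among them, 13 were above 0, with a median of 0.32. Col2a1, the collagen chain of cartilage, differed most at 0.85, and 0.70 without that library, with overlapping ranges of 20.2 to 135 and 14.2 to 43.1. Col5a1, a minor fibrillar chain, was lower at -0.21. The stretch of 200 bases before an annotated Col1a2 start site is shown. In the libraries outside both groups, the slope of Col1a2 on the score had one of the smallest unadjusted p-values. No slope passed the adjusted threshold there, and the partner chain Col1a1 is part of the score. The stretch comes from RefSeq for GRCm38.p6, at chr6:4505418-4505617 on the plus strand, inside the extent given above for the gene. Capitals mark the GC box GGGCGG.

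Col1a2: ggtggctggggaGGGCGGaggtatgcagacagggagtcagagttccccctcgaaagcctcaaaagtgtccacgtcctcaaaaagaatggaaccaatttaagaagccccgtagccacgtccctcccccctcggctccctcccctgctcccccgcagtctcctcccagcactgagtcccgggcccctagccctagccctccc

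The GC box was searched on both strands in 200 bases before each start. It occurred in 12 of the 19 leptomeningeal fibroblast genes with a RefSeq promoter (63.2%) and in 59% of all 12161 tested genes with one. A gene counted if any of its promoters held the box, so Col1a2 shares it with most genes.

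Basement membrane genes were all higher by small amounts. All 20 listed genes were above 0, with a median of 0.25 log2 units. Nid1, which encodes the laminin-collagen linker nidogen, was the clearest, at 1157 to 1787 normalized counts (median 1394) against 687 to 982 (median 863). Col4a5, a type IV collagen chain, had 309 to 459 (median 376) against 193 to 254 (median 232). Both had no overlap. Col4a1 and Col4a2, the chains found in all vessel walls, differed by only 0.15 and 0.04. Among 30 matrix glycoproteins and elastic fibre genes, 29 were above 0 with a median of 0.46. Fn1, for fibronectin, had 4783 to 6358 (median 5440) against 3573 to 4447 (median 3916), and Svep1, a large adhesion protein, had 84 to 213 (median 163) against 26.2 to 94.7 (median 48.5).

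Solute carriers of the meningeal barrier were higher in 18 of 18 genes tested, with a median of 0.57 log2 units. Slc6a13, a GABA and taurine transporter at chr6:121300227-121337733 on the plus strand, had 401 to 598 normalized counts (median 462) against 187 to 305 (median 242), with no overlap and a median 1.91 times as high. Slc22a6, an organic anion transporter, had 245 to 444 (median 340) against 121 to 227 (median 171). Slc13a4, a sulfate transporter, had 474 to 720 (median 566) against 220 to 374 (median 314). Slc6a20a, a proline transporter, had 690 to 1032 (median 748) against 411 to 646 (median 531). None of these 4 genes overlapped between the groups. Slc23a2, an ascorbate transporter that neurons also use, differed by 0.02.

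**Figure D2:**
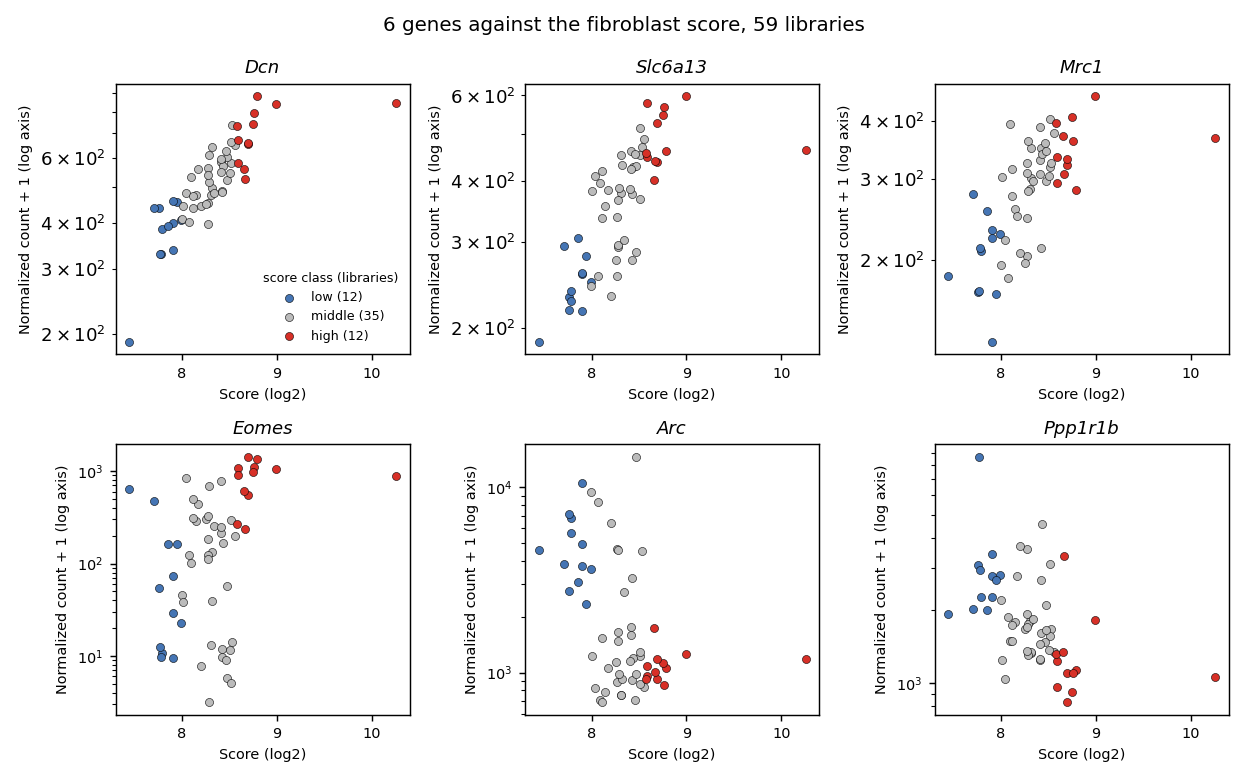
Normalized count + 1 (log vertical axis) of 6 genes against the fibroblast score (horizontal axis, log2) in the 59 libraries, coloured by high, middle and low score. Dcn, Slc6a13 and Mrc1 are higher in all 12 high-score than in all 12 low-score libraries and Arc is lower, while Eomes and Ppp1r1b overlap between the groups and scatter widely in the middle libraries.

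Signalling genes of the membrane were mixed. Igf2, the growth factor of leptomeninges and choroid plexus, had 3862 to 5528 normalized counts (median 4230) against 2631 to 3351 (median 2992), and Aldh1a2, the retinoic acid synthesizing enzyme of meninges, had 248 to 438 (median 362) against 138 to 238 (median 189). Gjb2, the gap junction protein connexin 26, had 286 to 444 (median 348) against 162 to 281 (median 220). None of these 3 overlapped. The wider retinoid list was not uniform, with 10 of 18 genes above 0 and a median of 0.14. The 18 ran from -0.83 to 1.82, with 1 gene higher and 1 lower with no overlap. Among the 8 below 0 were Cyp26b1, a retinoic acid degrading enzyme, and Rxra, a nuclear receptor, at -0.21 and -0.30. A few genes of the leptomeningeal list hardly differed: Pdgfra at 0.03, which oligodendrocyte precursors also express, Cemip at 0.06 and Fxyd5 at -0.03.

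Transcription factors of meningeal development were higher in 25 of 27 genes, with a median of 0.58 log2 units. Foxd1 had 46.7 to 83.2 normalized counts (median 66.1) against 13.3 to 47.5 (median 38.1), and Foxc1 had 150 to 225 (median 185) against 128 to 175 (median 148). Tbx18, also a pericyte factor, differed by 0.49. The homeobox gene Alx4 differed by 1.60 and Zic1 by 1.37. Zic1 is also a factor of olfactory bulb interneurons, and its values of 908 to 2662 against 459 to 1410 overlapped. For dural and skull fibroblast genes the median was 0.33, with 10 of 12 above 0 and 2 below, and all 12 overlapped between the groups. Their differences ran from -1.04 to 2.05, the highest being that of Sp7, a factor of osteoblasts. Sp7 did not stand out in WT-labelled vehicle male replicate 5, at 326 normalized counts against at most 502 elsewhere. Ibsp of the same list did, at 332 against at most 17.2. Which tissue the Sp7 difference came from was not tested.

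Genes of the macrophages at the brain's borders were higher together with the fibroblast genes. All 14 border macrophage genes that passed the filter were higher, with a median of 0.78 log2 units, and the level of the list was 5.98 to 6.65 in high-score and 5.11 to 5.91 in low-score libraries. Mrc1, the mannose receptor that marks these cells, had 282 to 453 normalized counts (median 348) against 132 to 277 (median 210), with no overlap. Cd209f, a lectin of perivascular macrophages, had 5.57 to 28.7 (median 14.8) against 1.04 to 10.2 (median 5.82). Microglial genes averaged little difference (median 0.08): the receptor Csf1r was at 0.08 and Cx3cr1 at 0.06. Globin and other blood cell genes that passed were all higher, 5 of 5 with a median of 0.66, and Hbb-bs, an adult beta globin, overlapped at 4158 to 9347 against 1762 to 6788. Of the 15 blood genes, 10 did not reach the filter, among them the neutrophil genes S100a8 and S100a9 at means of 2.28 and 4.27.

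Vessel genes differed less than the membrane's own genes. The brain endothelial median was 0.04 log2 units, with 9 of 17 genes above 0, and the pericyte and smooth muscle medians were 0.17 and 0.18. The astrocyte genes of the glia limitans, which lie against the pia, were above 0 in 12 of 13 (median 0.44). Gfap had 3919 to 6733 normalized counts (median 5537) against 2762 to 4113 (median 3308). Every gene of the glia limitans list overlapped between the groups. The general astrocyte list was above 0 in only 8 of 13 genes (median 0.08), with 1 gene higher with no overlap. Aqp4, the endfoot water channel, is not in the glia limitans list. It had 4875 to 6846 (median 5402) against 3435 to 4253 (median 3805), with no overlap. Slc1a2, the glutamate transporter of astrocytes throughout the grey matter, was lower at -0.35. Interferon response genes were higher in 18 of 19, with a median of 0.33, and Rsad2, the antiviral protein viperin, differed by 0.64.

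The largest median difference of the 36 lists was that of the olfactory bulb list. All 11 olfactory bulb genes that passed were higher in the high-score libraries, with a median of 2.24 log2 units, 9 of them by at least 1. Eomes, a factor of bulb projection neurons, had 233 to 1433 normalized counts (median 937) against 8.51 to 646 (median 40.6). Tbx21, which marks the same mitral and tufted cells and lies at chr11:97098071-97115331 on the minus strand, had 63.1 to 456 (median 317) against 1.88 to 213 (median 7.98). Cdhr1, a cadherin of these cells, had 1585 to 8300 (median 5607) against 264 to 2850 (median 414). Th, the dopamine synthesis enzyme of bulb periglomerular neurons, had 373 to 1933 (median 1318) against 63.1 to 1134 (median 127). Ms4a15, which is not in the olfactory bulb list, had the largest difference among genes with a mean of at least 50, at 4.29.

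The mean level of the olfactory bulb list overlapped between the groups, and 1 of its 11 genes did not. That level was 9.34 to 11.40 in high-score libraries (median 10.95) and 7.34 to 10.51 in low-score libraries (median 7.93). It lay above every low-score library in 8 of 12 high-score libraries, and in 3 of 35 middle libraries. The library with the lowest score of all, WT-labelled fluoxetine male replicate 1, had the highest bulb level of its group at 10.51. Olfactory ensheathing glia, which wrap the olfactory nerve, were above 0 in 8 of 11 genes (median 0.47), and Foxd3, a neural crest factor, had 13.2 to 114 (median 36.8) against 0 to 19.6 (median 1.21). Layer 1 neuron genes were above 0 in 5 of 8 (median 0.63), and Reln, made in layer 1 and in the bulb, had 3444 to 7068 (median 6432) against 2275 to 5688 (median 2918). The part of bulb tissue in differences of genes shared by both tissues was not tested.

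Immediate early genes, which neurons switch on within minutes of activity, were lower in the high-score libraries in 18 of 18 genes, with a median of -0.74 log2 units. Arc, a synaptic plasticity gene at chr15:74669083-74672570 on the minus strand, had 860 to 1732 normalized counts (median 1069) in the high-score and 2350 to 10500 (median 4209) in the low-score libraries. All 12 high-score libraries lay below all 12 low-score libraries. Egr1 had 3364 to 4894 (median 4032) against 5567 to 10280 (median 8244), also with no overlap. Egr2 had 68.2 to 176 (median 114) against 171 to 552 (median 340), where 10 of 12 high-score libraries lay below all low-score libraries. Without WT-labelled vehicle male replicate 5 the median of the list was -0.73.

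Promoters of a pair of immediate early genes are shown because all 18 genes of the group were lower, and each holds an element of the search besides the GC box. Both are 200 bases before the RefSeq start in GRCm38.p6 on the plus strand, at chr12:85473690-85473889 for Fos and chr10:67537366-67537565 for Egr2, for which RefSeq lists 5 promoters. Capitals mark a TATA box, TATAAA, in Fos and a CArG box, the form bound by serum response factor, in Egr2. The GC box that both hold is not marked.

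Fos: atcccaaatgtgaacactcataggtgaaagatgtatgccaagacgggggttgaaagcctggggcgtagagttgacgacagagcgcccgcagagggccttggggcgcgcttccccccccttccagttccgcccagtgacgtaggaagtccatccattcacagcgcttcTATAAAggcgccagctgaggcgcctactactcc

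Egr2: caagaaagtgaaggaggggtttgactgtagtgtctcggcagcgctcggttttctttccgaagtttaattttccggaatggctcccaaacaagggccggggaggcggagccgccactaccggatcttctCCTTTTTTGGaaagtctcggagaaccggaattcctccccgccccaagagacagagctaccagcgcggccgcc

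Counts are of genes with a RefSeq promoter, and a gene counted if any of its promoters held the element in this window. Of 14 immediate early genes, 1 held TATAAA and 1 a CArG box, against 3.92% and 1.13% of all 12161 genes. The GC box occurred in 11 of 14 (78.6%), against 59% of all. The full cyclic AMP response element TGACGTCA occurred in 2 of 14, Btg2 and Dusp1, against 2.82% of all. Among 19 leptomeningeal genes 1 held TATAAA, 1 a CArG box and 0 the full element. These matches describe letters only.

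Genes of excitatory cortical and striatal neurons were mostly lower. Cortical excitatory genes were below 0 in 14 of 15, with a median of -0.32 log2 units. Fezf2, the determinant of deep-layer projection neurons, had 312 to 708 normalized counts (median 502) against 756 to 1053 (median 976), with no overlap. Striatal genes were below 0 in 11 of 13 (median -0.51). Drd1, the dopamine receptor of striatonigral neurons, had 83 to 806 (median 136) against 186 to 1637 (median 432). Ppp1r1b, which encodes the striatal phosphoprotein DARPP-32, had 829 to 3362 (median 1116) against 1923 to 8692 (median 2718). Interneuron genes were mixed, 5 of 12 above 0 and 7 below with a median of -0.18. Pvalb, the calcium buffer of fast-spiking cells, had 283 to 721 (median 428) against 632 to 909 (median 803). Calb2, which encodes calretinin and is abundant in the olfactory bulb as well, had 1279 to 7285 (median 5113) against 398 to 4561 (median 633). The striatal level lay below every low-score library in 10 of 12 high-score libraries. Myelin genes were below 0 in 13 of 15 (median -0.42), and Opalin, an oligodendrocyte membrane protein, had 185 to 420 (median 292) against 304 to 740 (median 540).

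Several of the largest negative differences belonged to genes of no list. Krt80, a keratin, had 26.4 to 123 (median 62.5) against 120 to 306 (median 235), a difference of -1.90 log2 units. Nxph3, a neurexin ligand of deep cortical layers, had 230 to 941 (median 446) against 664 to 1272 (median 1173), a difference of -1.31. Gm43546 had a difference of -1.27, and -0.89 without WT-labelled vehicle male replicate 5, with a value of 0 in at least 1 library of each group.

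**Figure D3:**
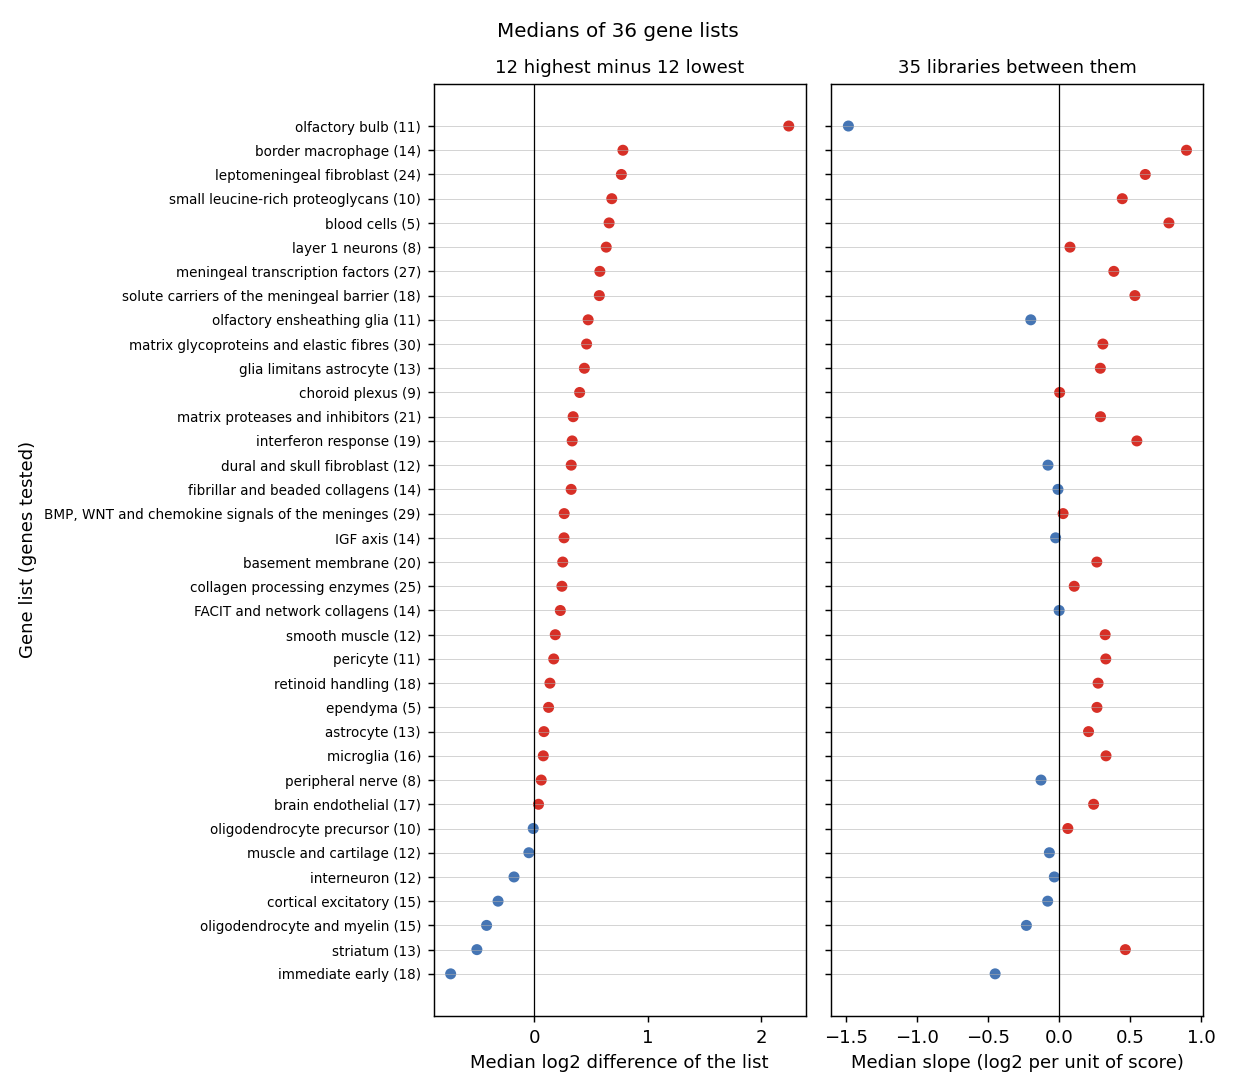
Median over the tested genes of each of 36 lists (number of genes in brackets), as the log2 difference of the 12 high-score minus the 12 low-score libraries (left) and as the slope on the score in the 35 libraries between them (right, log2 per unit of score), red above and blue below 0. Leptomeningeal fibroblast and border macrophage genes are positive in both panels, whereas olfactory bulb genes go from 2.24 to -1.48 and striatal genes from -0.51 to 0.46.

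The 35 libraries outside both groups allowed a test of each gene against the score, with the 12 label groups held apart by their own means. No gene passed an adjusted p of 0.05 in either direction (limma, 0.0% called higher and 0.0% called lower), while 881 genes had an unadjusted p under 0.05, 518 with a positive and 363 with a negative slope. The 2 smallest p-values belonged to a leptomeningeal collagen and a solute carrier of the meninges. Col1a2 had a slope of 0.93 ± 0.17 log2 units per unit of score (SE; limma adjusted p = 0.162), and Slc6a20a, at chr9:123634770-123678885 on the minus strand, had 0.95 ± 0.18 (SE; adjusted p = 0.162). Igf2 had 0.76 ± 0.16 (SE; limma adjusted p = 0.262) and Dcn 0.85 ± 0.20 (SE; adjusted p = 0.306).

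Some lists had slopes of the sign of their high-minus-low difference in these middle libraries, and others did not. Slopes were positive in 23 of 24 leptomeningeal fibroblast genes, with a median of 0.60, and 16 of the 24 had an unadjusted p under 0.05. Over all genes the median was 0.00, with 8348 of 16836 positive. Border macrophage slopes were positive in 14 of 14 with a median of 0.89, solute carrier slopes in 16 of 18 with 0.53, and interferon slopes in 19 of 19 with 0.55. Brain endothelial and microglial genes, which hardly differed between the outer groups, had medians of 0.24 and 0.33. Slopes of the fibrillar and beaded collagens were positive in 7 of 14 with a median of -0.01, those of the FACIT and network collagens in 7 of 14 with 0.00, those of the IGF axis in 6 of 14 with -0.03 and those of dural and skull fibroblasts in 5 of 12 with -0.08, although all 4 lists had positive high-minus-low medians. These slopes share the libraries and the score, so the genes of a list are not separate evidence.

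Olfactory bulb and striatal genes had the opposite sign there. Bulb slopes were below 0 in 11 of 11, with a median of -1.48, and none had an unadjusted p under 0.05. This median ran from -2.40 (without HT-labelled lithium female replicate 2) to -0.65 (without WT-labelled fluoxetine male replicate 5) when 1 library was left out, and was -0.18 with Col1a1 and Col3a1 and -0.19 with Col1a1 and Lum as the score. Eomes had -2.23 ± 3.46 (SE). Striatal slopes were above 0 in 12 of 13 with a median of 0.46, none with an unadjusted p under 0.05. Immediate early slopes were below 0 in 18 of 18 with a median of -0.45, also none with an unadjusted p under 0.05. Their median ran from -0.81 (without HT-labelled vehicle male replicate 1) to -0.03 (without HT-labelled lithium female replicate 2) when 1 library was left out, and was 0.27 when the score was built from Col1a1 and Col3a1 alone. With the bulb level as a covariate the leptomeningeal median was 0.69. Among negative slopes Zfp786, a zinc finger gene, had -1.14 ± 0.27 (SE; limma adjusted p = 0.330). Gstp2, a glutathione transferase with a near-identical paralog, had the steepest slope of the named genes at 8.41 ± 1.70 (SE; limma adjusted p = 0.205), on values down to 0 in the high-score group.

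The 2 groups did not sample the labels evenly. Vehicle libraries made up 7 of the 12 high-score and 0 of the 12 low-score libraries, fluoxetine libraries 3 and 6, and lithium libraries 2 and 6. HT-labelled libraries made up 8 of the high-score and 4 of the low-score group, and females 6 and 5. Since the labels played no part in the rule, the score itself could be tested against them over all 59 libraries, by two-sided permutation within the strata of the other labels, adjusted over 4 comparisons.

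Lithium libraries scored 8.13 ± 0.293 (SD, n = 20) and vehicle libraries 8.58 ± 0.443 (SD, n = 20), a difference of -0.45 (permutation adjusted p = 0.00012). Lithium was lower in 4 of 4 strata of genotype label and sex. Without WT-labelled vehicle male replicate 5 the difference was -0.36 (permutation adjusted p = 0.00024). Fluoxetine libraries scored 8.23 ± 0.342 (SD, n = 19), a difference from the same vehicle libraries of -0.35 (permutation adjusted p = 0.00872), lower in 4 of 4 strata, and -0.26 without that library (permutation adjusted p = 0.0191). HT minus WT was 0.07 (permutation adjusted p = 0.660), and 0.13 without that library (permutation adjusted p = 0.114). Female minus male was -0.04 (permutation adjusted p = 0.677), and 0.02 without that library (permutation adjusted p = 0.793).

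The lithium difference was -0.28 in HT-labelled and -0.63 in WT-labelled libraries, and this gap of 0.35 did not pass (permutation p = 0.149, adjusted over 4 such tests 0.595). The other 3 gaps, between genotypes or sexes, had adjusted permutation p-values of 0.819.

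The score also differed by replicate number, which the labels give without saying what it stands for. High-score and low-score libraries numbered 0 and 7 among replicates 1, 0 and 3 among replicates 2, 2 and 1 among replicates 3, 6 and 1 among replicates 4, and 4 and 0 among replicates 5. The number accounted for 29.1% of the variation of the score within label groups (permutation p = 0.00233), and for 35.5% without WT-labelled vehicle male replicate 5 (permutation p = 0.00061). This test was added after the values were seen, and its p-values are not adjusted. Other lists differed between the numbers too: the median immediate early level was 10.1 in the 12 libraries numbered 1 and 9.25 in the 11 numbered 5, and the median olfactory bulb level was 7.62 and 10.12. Lithium and fluoxetine were lower than vehicle within 5 of 5 numbers. The part of the number in the high-minus-low differences was not tested.

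**Figure D4:**
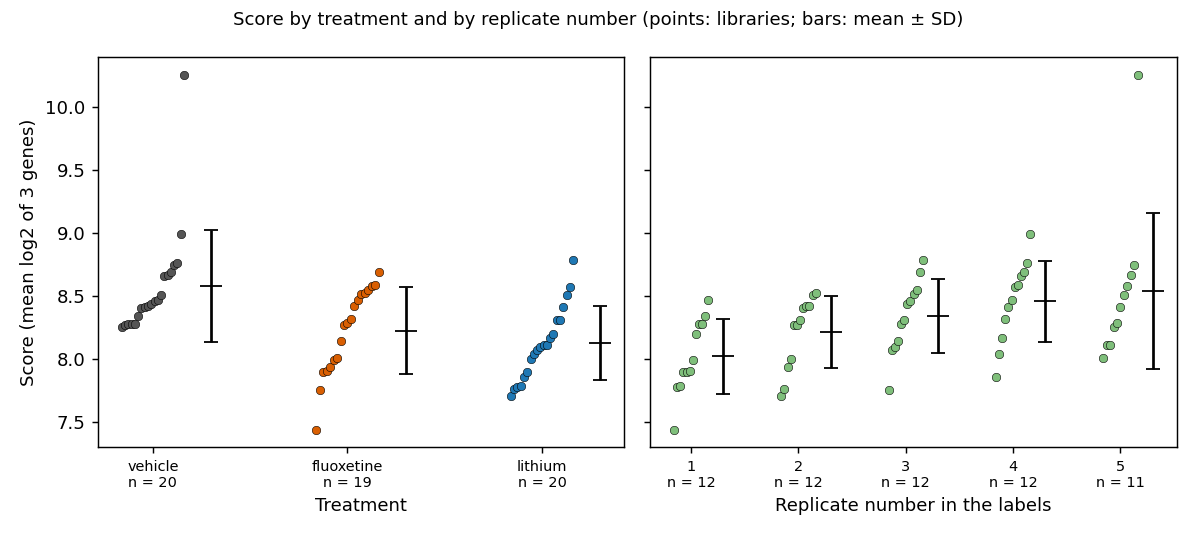
Fibroblast score of each library (points, log2 scale) by treatment (left) and by the replicate number in the labels (right), with the mean and SD as bars beside each column and n under it. Lithium and fluoxetine means, 8.13 and 8.23, lie below the vehicle mean of 8.58, and the columns of replicate numbers also differ, with no low-score library among the libraries numbered 5.

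The treatment comparisons were then read for the same gene groups, with and without the score in the model. Lithium against vehicle, averaged over genotype labels and sexes, called 471 genes higher (2.80%) and 269 lower (1.60%) by limma. Of 24 leptomeningeal fibroblast genes, 3 fell and 0 rose, and 23 of the 24 estimates were below 0, with a median of -0.22. Fmod fell by 0.36 ± 0.098 on the log2 scale (SE; limma adjusted p = 0.0221), Gjb2 fell by 0.34 (adjusted p = 0.0280) and Lamc3, a laminin chain of the pial basement membrane, fell by 0.24 (adjusted p = 0.0418). The 3 calls ended without the 12 high-score libraries (limma adjusted p = 0.0979, 0.153 and 0.302). Those 12 were chosen by fibroblast genes and hold 7 vehicle and 2 lithium libraries. Removing them takes out the highest vehicle scores and leaves fewer libraries, so a call lost in that fit decides nothing about the gene. When 1 of the 59 libraries was left out, Fmod kept its call each time, Gjb2 lost it in 5 cases and Lamc3 in 16. Of 18 solute carriers, 4 fell, among them Slc6a20a by 0.30 (limma adjusted p = 0.0238) and Slc22a8, an organic anion transporter, by 0.20 (adjusted p = 0.00970). Of 19 interferon genes, 2 fell, Rsad2 by 0.52 (limma adjusted p = 0.00208) and Oasl2, an antiviral protein, by 0.44 (adjusted p = 0.0133). Without the 12 high-score libraries Slc6a20a (limma adjusted p = 0.170) and Oasl2 (limma adjusted p = 0.0670) were not called. Of 14 border macrophage genes none was called, with a median of -0.24 and 13 below 0. Igf2r, the receptor that clears insulin-like growth factor 2, and Pde10a, a striatal phosphodiesterase, rose by 0.11 (limma adjusted p = 0.0123) and 0.47 (adjusted p = 0.0180), and without the 12 high-score libraries Pde10a was not called (limma adjusted p = 0.0643). Lists of other tissue also had one sign under lithium: olfactory bulb genes had estimates below 0 in 11 of 11 with a median of -0.27, striatal genes above 0 in 13 of 13 with 0.19, and immediate early genes above 0 in 17 of 18 with 0.23. Their part in the calls was not tested.

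With the score as a covariate, lithium against vehicle called 168 genes higher (0.998%) and 172 lower (1.02%), and 219 genes were called in both fits, 29.6% of the first and 64.4% of the second. None of the leptomeningeal, solute carrier, interferon, border macrophage or striatal genes was called. The leptomeningeal median went to 0.04 with 8 of 24 below 0, and the interferon median to -0.07 with 15 of 19 below 0. The score was itself lower under lithium and was built from genes of the same cells, so in this fit the drug and the amount of membrane cannot be told apart.

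**Figure D5:**
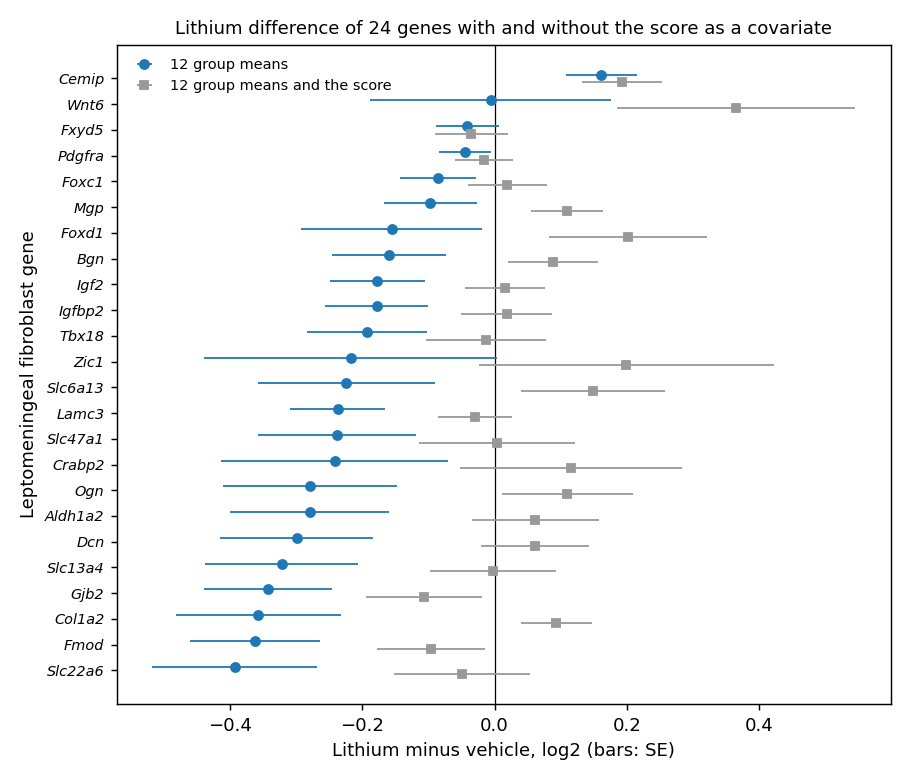
Lithium minus vehicle, in log2 units with SE bars, for the 24 leptomeningeal fibroblast genes tested (vertical axis), from a fit of the 12 label group means (blue circles) and from the same fit with the score as a covariate (grey squares). In the first fit 23 of 24 genes lie below 0, and with the score 8 of 24 do.

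Fluoxetine against the same vehicle libraries called 6 genes higher (0.0356%) and 5 lower (0.0297%). None was a leptomeningeal fibroblast gene, and 23 of those 24 were below 0 with a median of -0.17, or 6 of 24 with a median of 0.03 when the score was in the fit. Olfactory bulb genes were below 0 in 11 of 11 with a median of -0.40. HT minus WT called 618 genes higher (3.67%) and 726 lower (4.31%), with no leptomeningeal gene among them and 5 of 24 below 0. Female minus male called 14 higher (0.0832%) and 12 lower (0.0713%). Without the 12 high-score libraries HT minus WT called 546 genes in place of 1344, in a fit with fewer libraries.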

How the data were processed

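Prefrontal cortex RNA of 59 mice was sequenced from TruSeq Stranded mRNA libraries, per the labels' protocols. The deposited signal values are one table of normalized estimated counts per gene made by the authors, per the table itself; they are not whole numbers, so no count model was used. The submitters' processing notes name Salmon 0.11.2, R 3.6.0, DESeq2 1.19.11 and GRCm38. The role of each tool is not given in the sources used here. M stands for mega. Estimated reads per library are the sum of its values divided by its most frequent value between 0.5 and 2, taken as the worth of 1 read.

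Values were analysed as log2(value + 1). Of 51456 genes, 16839 had a mean of at least 10 over all libraries, and 16836 remained without the score genes. limma 3.58.1 (trend and robust shrinkage; R 4.3.3, statmod 1.5.0) fitted a mean for each label group, with Benjamini-Hochberg adjustment over all genes at 0.05; the slope fit used 35 libraries and 22 residual degrees of freedom. It was tested on simulated data. Score tests used 100000 permutations. Python 3.11.15, numpy 2.4.6, pandas 2.3.3 and matplotlib 3.10.9 did the rest.

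Named were the 15 largest positive and 10 largest negative high-minus-low differences among genes with a mean of at least 50, the 10 smallest slope p-values in each direction, all tested leptomeningeal fibroblast genes, Chd8, and of each of 36 lists the 3 most abundant and 2 most different genes; others were named after their values were seen, among them genes called under lithium. Some genes that meet the rule are not reported here. Members and lists were chosen with earlier results of these data known. Alternatives were a pseudocount of 0.5, TMM factors, no filter, scores of 2 genes, groups of 6 or 20, group means taken out, covariates, a block, and each library left out. Promoter sequences and their positions are RefSeq's for GRCm38.p6, matched by symbol for 12161 of the tested genes. Gene positions are GENCODE's for GRCm38.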

Additional observations from a re-analysis of the deposited data

Results flagged for a closer look

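In 84 tests for a library far from the others of its label group (7 measures in 12 groups), 9 values stood apart; chance gives about 1 in 20. WT-labelled vehicle male replicate 5 had a score of 10.26, against 8.51 for the next of its group, and a leptomeningeal fibroblast level of 9.07, against 8.72. The genes that were high in it are given above. In HT-labelled vehicle females, replicate 1 had an immediate early level of 9.502, against 9.11 for the next. In HT-labelled lithium males, replicate 1 had the lowest border macrophage level, 5.24, against 5.98.

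The other 5 were high striatal levels. WT-labelled lithium male replicate 2 had 11.43 against 8.82 for the next of its group, and HT-labelled vehicle female replicate 3 had 10.52 against 8.56. WT-labelled vehicle female replicate 5, a high-score library, had 10.08 against 8.71. WT-labelled fluoxetine female replicate 1 had 9.46 against 8.51, and WT-labelled lithium female replicate 1 had 9.43 against 8.78. Drd1 and Ppp1r1b, read above between high-score and low-score libraries, belong to this striatal list.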

How the results depend on the processing

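The high-minus-low counts depended most on how many libraries were compared. With 6 on each side, 430 genes were at least 1 higher, 92 at least 1 lower, 1059 higher and 1412 lower with no overlap. With 20 on each side these were 33, 9, 4 and 0, and with label group means taken out 163, 27, 17 and 38. With no filter 489 and 93 genes differed by at least 1. A score of Col1a1 and Col3a1 gave 176 at least 1 higher, 28 higher and 12 lower with no overlap, and one of Col3a1 and Lum 35 and 13. The leptomeningeal median was 1.047 with 6, 0.602 with 20 and 0.543 with group means out; with 20, the olfactory bulb median was 0.798 and the immediate early median -0.4038. Leaving out 1 library gave 245 to 298 genes at least 1 higher, 44 to 60 lower, 86 to 153 higher with no overlap (153 without WT-labelled vehicle female replicate 5) and 169 to 325 lower (325 without WT-labelled lithium female replicate 4).

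In the middle libraries the slope called 10 genes higher and 3 lower with Col1a1 and Lum as the score, 12 and 4 with no group terms, and 0 to 3 higher without 1 library (3 without HT-labelled fluoxetine female replicate 3). Signs turned for the bulb median (0.0698 with the bulb level as a covariate, by construction), the immediate early median (0.27 with Col1a1 and Col3a1), Poln (0.44 with Col1a1 and Col3a1, 0.45 with Col1a1 and Lum) and Ptpn12 (0.0804 with Col1a1 and Lum). The cause was not tested.

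HT minus WT called 877 genes with no filter and 546 without the 12 high-score libraries, against 1344, and 1097 to 1677 without 1 library. Fluoxetine called 4 with no filter and 2 without the 12, against 11, and 4 to 74 without 1 library (4 without WT-labelled fluoxetine male replicate 1, 74 without HT-labelled vehicle male replicate 1). Lithium called 482 with no filter and 340 with the score, against 740, and 560 to 880 without 1 library (560 without HT-labelled lithium female replicate 1). Gjb2 was no longer called under lithium when replicate 3 or 4 of the HT-labelled vehicle males was left out, or HT-labelled lithium female replicate 1, HT-labelled lithium male replicate 1 or WT-labelled lithium female replicate 1. Lithium differences of Col1a1 and Lum became 0.0479 and 0.0357 with the score. The drug differences of the score kept their sign and side of the threshold in every alternative run, from -0.49 to -0.36 for lithium and -0.39 to -0.26 for fluoxetine without 1 library. The sex difference of the score became 0.0196 without WT-labelled vehicle male replicate 5, from -0.0715 to 0.0196 over all left out.

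Over all genes, deviations of same-numbered libraries had a median correlation of 0.05 over 319 pairs (-0.37 to 0.55), 123 of them over 0.1. The numbers were not taken to pair libraries and the main fits leave them out, although the score differs by number. By mean correlation with libraries of other label groups, 19 of 59 libraries were closest to their own number, among 5 numbers. With the replicate block fluoxetine called 41 genes, lithium 1027 and the slope 0, and the score differences were -0.45 for lithium and -0.34 for fluoxetine.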
